A study of Mus musculus with 48 samples.

Results

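Bri3bp was represented by 123 of the 48715 genomic positions at which reads had been counted in each library, taken as every position that the deposited tables assign to this gene. It encodes the BRI3-binding protein, and 121 of the positions lie in its 3′ UTR and 2 in introns. A read at such a position counts as edited when it carries G in place of the genomic A, because inosine pairs like guanosine and is copied as G. The editing level is the share of edited reads at a position, and it was used only where more than 100 reads covered the position. Of the 123 positions, 111 had any read, 82 passed 100 reads in at least 1 library and 41 did so in none, the 2 intronic positions among them.

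The assay was microfluidics-based multiplex PCR followed by sequencing (mmPCR-seq), in which chosen transcript segments are amplified from cDNA and the bases at known adenosines are counted. The 48 libraries came from heart, brain, liver, kidney, spleen, thymus, bone marrow (BM) and small intestine of male C57BL/6 mice aged 12 weeks, with 3 biological replicates of each of 2 genotypes per tissue. Both genotypes lack Ifih1, which encodes the RNA sensor MDA5. The controls were Adar1+/+ Ifih1-/- (WT below) and the mutants Adar1E861A/E861A Ifih1-/- (E861A below), which carry a germline substitution in the deaminase domain of ADAR1. Animals of each genotype that carry Ifih1 were not analysed here, so every value below was measured without MDA5.

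ADAR1 and ADAR2 deaminate adenosine to inosine in double-stranded RNA. In a 3′ UTR such RNA forms where inverted repeats fold back on each other, and adenosines along the duplex are edited to different degrees. A mouse whose ADAR1 cannot deaminate still has ADAR2, which is known for recoding sites in transcripts of neurons, such as that of Gria2.

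The gene (ENSMUSG00000037905) lies on the plus strand at chr5:125921938-125941242 of the mm9 assembly (NCBIM37), and its 3′ UTR of 6119 bases fills most of exon 3 at chr5:125935124-125941242. Sites are named here by their distance in bases from the end of the stop codon, so that site 1852 is the adenosine at chr5:125936975. The 82 readable positions fell into 5 stretches that were read together. Stretch 1 held 2 sites at 1387 and 1388, stretch 2 held 13 sites from 1820 to 1950, and stretch 3 held 25 sites from 1996 to 2185. A further 17 sites from 2711 to 2838 made up stretch 4, and 25 sites from 5799 to 5964 made up stretch 5.

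Editing was found in 24 of the 82 readable sites, taking a site as edited in a tissue where the reads of a genotype's replicates together gave a level above 1%. Of these, 4 lay in stretch 2, 12 in stretch 3, 7 in stretch 4 and 1 in stretch 5. At the other 58 sites the highest level in any library had a median of 0.396% and reached 1.87%. The windows that hold the most edited sites are printed here from the mm9 plus strand, which reads in the sense of the transcript, with edited adenosines in capitals. The first holds sites 1852 and 1856, and the second the sites 2006, 2008, 2010, 2012 and 2013. The next ones hold sites 2153 and 2154, site 2174, and sites 2723, 2724, 2725 and 2728.
chr5:125936965-125936985: cggagtttaaAgccAgtctgg
chr5:125937125-125937140: gaatAtAtAtAAtgtg
chr5:125937269-125937284: tgtatttAAgactggc
chr5:125937290-125937304: acttgctAagtagct
chr5:125937838-125937856: ctctgtgtAAAccAggctg

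These windows belong to strands that RNAfold predicted to be paired. When the 2452 bases around stretches 1 to 4 were folded (chr5:125936010-125938461, minimum free energy -857.6 kcal/mol), 41 of the 57 sites there were in a base pair, and 44 were with 1000 instead of 500 flanking bases. Stretch 2 paired with the 3′ end of stretch 3, so that site 2153 faced a base of stretch 2 and site 2174 another. The run at 2006 to 2013 sat in a shorter hairpin inside that duplex, and sites 2711 to 2728 paired with a segment upstream of stretch 4 that holds none of the analysed sites. Among the 23 edited sites of these stretches, 19 were paired with U.

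Sites 1852, 2013 and 2724 instead faced a C in a mismatch of 1 base, as did 1 unedited site, 1998. The segments opposite sites 1852 and 2724 are shown with that C in capitals.
chr5:125937307-125937321: gactggcCttaaact
chr5:125937607-125937621: gcctggtCtacagag

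ADAR enzymes are known to disfavour a G just 5′ of the target. Of the 11 Bri3bp sites that passed 20% in any library, 5 followed an A, 5 a T, 1 a C and 0 a G. A G preceded 6 of the 21 sites that peaked between 1% and 20%, and 13 of the 50 sites that stayed at or below 1%. These counts describe the sites and were not tested, since neighbouring adenosines share their sequence context.

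**Figure D1:**
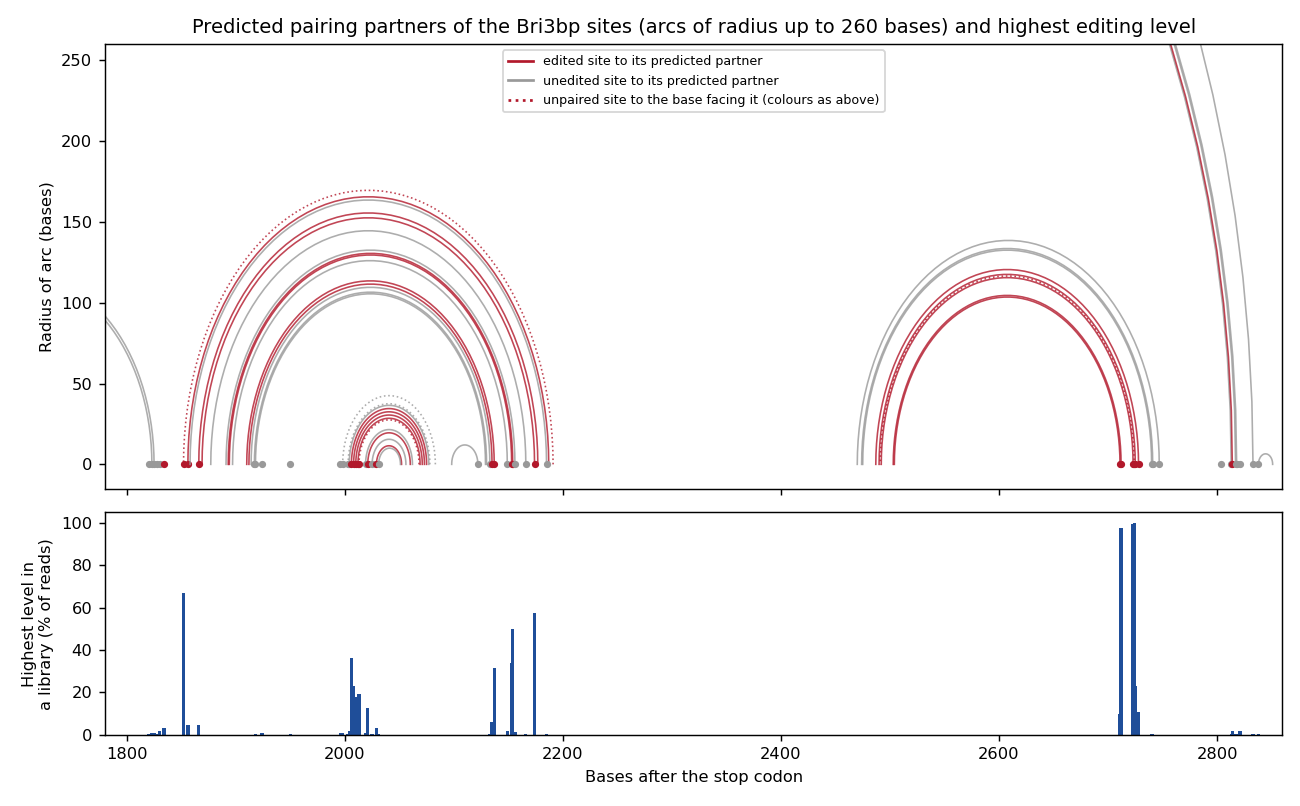
Predicted pairing of the Bri3bp sites of stretches 2 to 4 (upper panel, arcs from each site to its partner, x axis in bases after the stop codon, y axis the arc radius in bases) and the highest editing level of each site in any library (lower panel, % of reads). Edited sites (red) lie under 3 sets of nested arcs, and the dotted arcs mark sites without a predicted pair, among them 1852, 2013 and 2724.

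Read depth differed between stretches and libraries. Over the libraries, the median coverage of stretch 2 ran from 1416 to 6313 reads and passed 100 in all 48 libraries. It passed 100 in 46 libraries for stretch 1, in 39 for stretch 3, in 42 for stretch 4 and in only 16 for stretch 5, whose median over libraries was 26.5 reads. The number of Bri3bp sites with more than 100 reads ran from 13 in BM WT replicate 2, where only stretch 2 was read, to 82, with a median of 56. The reads summed over all positions ran from 1861831 to 11394093 per library. Reads were amplified by PCR without molecular identifiers, so they are not independent molecules and any limit drawn from their number covers counting error only.

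The tissue labels were set against transcripts of neurons. The best-read position of Gria2, a glutamate receptor subunit, had 4646 to 10692 reads in the brain libraries and at most 2382 elsewhere. Htr2c gave 2657 to 6639 reads in brain and up to 2813 in other tissues, and Gabra3 did not separate brain from liver, with 274 to 2552 reads against 521 to 1769. Adar itself was represented by intronic positions without reads, so the genotype labels could not be checked from these tables.

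Brain retained Bri3bp editing in the E861A animals. All 10 sites edited in the WT brain were also edited in the E861A brain, where 3 more sites passed 1% to give 13. Over all genes, 68.8% of the sites edited in the WT brain were edited in the E861A brain. With a limit of 5% in place of 1%, 4 Bri3bp sites were edited in both. The mean level over the 13 sites was 16.1%, 15.1% and 11.7% in the WT replicates and 12.9%, 12.3% and 11.0% in the E861A replicates, so the ranges overlapped (14.3% ± 2.31 against 12.0% ± 0.948, SD, n = 3 each). With sites weighted by their reads the difference between the means was -8.98 percentage points in place of -2.29, and leaving out single libraries gave -3.59 to -1.39. Among the 10 sites edited in both genotypes the E861A mean lay above the WT mean at 6 and below it at 4.

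No brain site passed the limma test between genotypes in either direction at an adjusted p of 0.05. The share called was 0% of the 808 edited sites of all genes in brain, lower and higher alike. Without adjustment 3 Bri3bp sites had p under 0.05, a quasi-binomial model called 0, and the study's criterion of an unadjusted F test at p under 0.1 with a difference of at least 5 percentage points called 1 site lower and 3 higher. All 13 sites were read in all 6 brain libraries, and the genotypes did not overlap at 4 of them. At 1 site every E861A replicate was below every WT replicate (11.6% of all such brain sites), and at 3 sites every one was above (6.66%).

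The site with the highest level was 2724 (chr5:125937847), which is both the leading site over the WT tissues, with a mean of 25.3% over the 8 tissue means, and the most edited site of the E861A brain. Its WT brain replicates were at 100%, 61.1% and 39.6%, and its E861A brain replicates at 58.9%, 50.7% and 52.0%. All 3 mutant values fell inside the wide range of the controls. The means were 66.9% ± 30.6 and 53.9% ± 4.42 (SD, n = 3 each), and the limma estimate was -2.01 ± 1.84 (SE) on the log2 scale of edited over unedited share, with an adjusted p of 0.701.

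Its neighbours on either side gave other patterns. Site 2723 was at 0%, 0.0969% and 5.69% in the WT brain and at 16.3%, 9.04% and 9.01% in the E861A brain. Site 2725 was at 0.691%, 0% and 0.0929% in the WT brain and at 23.1%, 11.5% and 8.39% in the E861A brain. For both, every mutant replicate was above every control replicate. Site 2725 passed the edited limit only in E861A, through which it entered the comparison.

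Neither difference passed the test. The limma estimate was 2.78 ± 1.00 for site 2723 (adjusted p = 0.613) and 3.75 ± 0.77 for site 2725 (adjusted p = 0.130), both on the log2 scale. A fit over all 48 libraries called 2725 (adjusted p = 9.85e-11) and not 2723, and the study's criterion called both. At site 2728 of the same window the WT replicates were at 0.139%, 0% and 10.9% and the E861A replicates at 7.72%, 0.197% and 6.66%, which overlapped (adjusted p = 0.784).

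Site 2153 (chr5:125937276), in the duplex with stretch 2, was at 22.4%, 31.2% and 24.9% in the WT brain and at 33.8%, 34.1% and 32.4% in the E861A brain. The mutant replicates were close together and all above the controls, although the adjusted p from limma was 0.701. The adjoining site 2154 was at 16.7%, 16.1% and 21.7% in the WT brain and at 4.65%, 19.9% and 11.9% in the E861A brain, which overlapped (adjusted p = 0.701).

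Site 1852 (chr5:125936975) was the brain site at which every mutant replicate was the lower. It was at 66.4%, 65.1% and 42.3% in the WT brain and at 16.3%, 9.67% and 10.2% in the E861A brain. The mean fell by 45.9 percentage points, from 58.0% ± 13.5 to 12.1% ± 3.70 (SD, n = 3 each), a gap larger than the spread of either group. The limma estimate was -3.27 ± 0.64 on the log2 scale, and its adjusted p of 0.130 did not pass. Without WT replicate 3, the lowest control, the adjusted p from limma was 0.0384, and in a fit over all 48 libraries it was 0.0147.

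The remaining 6 edited brain sites were low in most libraries. Site 2010 reached 13.6% in WT replicate 2 but at most 0.0617% in the other controls, and site 2711 reached 9.75% in E861A replicate 2 but at most 0.142% in any other brain library. Site 2174 was at 0.480%, 4.16% and 3.37% in the WT brain and at 0.636%, 5.56% and 5.03% in the E861A brain. Sites 1866, 2013 and 2137 stayed at or below 5.31% in every brain library. For these 6 sites the adjusted p from limma ran from 0.701 to 0.910.

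**Figure D2:**
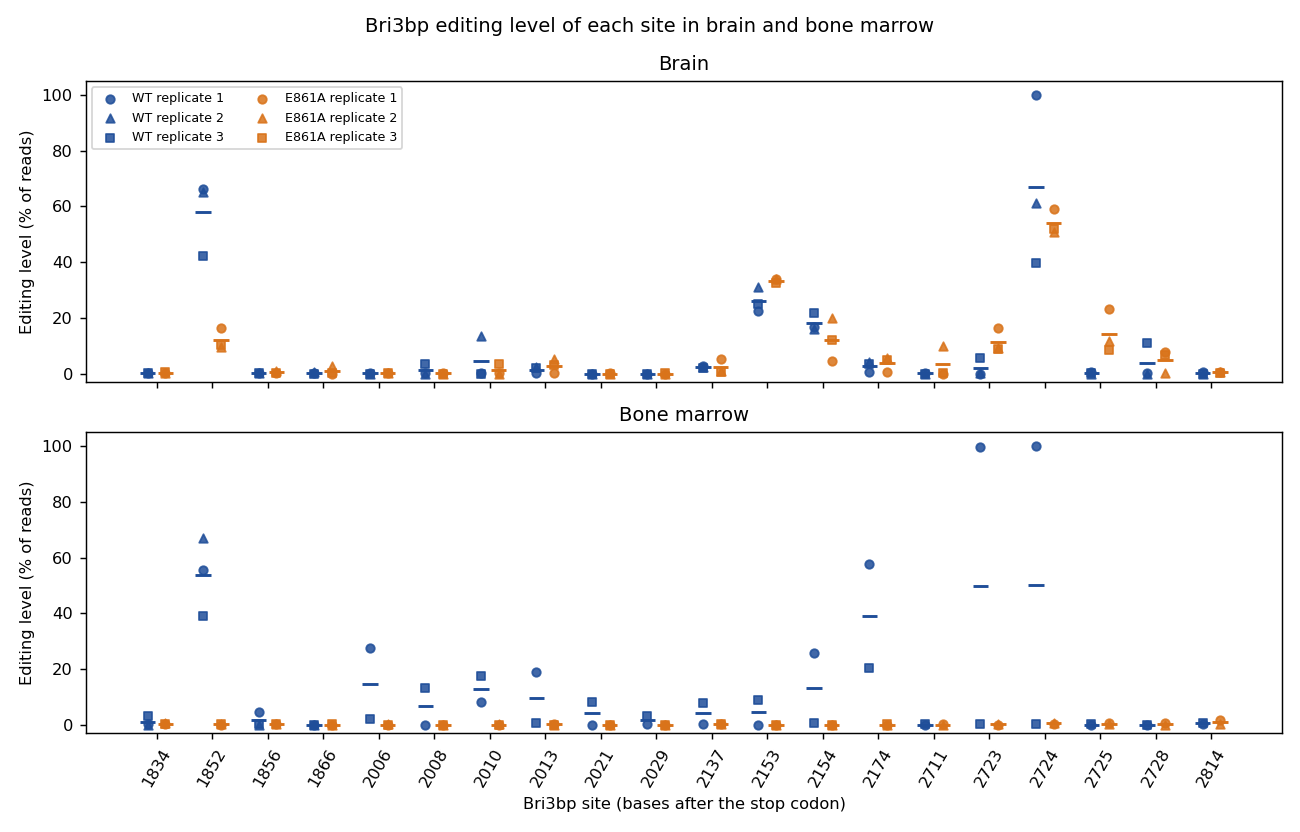
Editing level (% of reads, y axis) of the Bri3bp sites edited in brain or BM, by bases after the stop codon (x axis), with 1 point per library with more than 100 reads, symbols for the replicates and a bar at the group mean. In brain the E861A points (orange) stand beside the WT points (blue) at 2153, 2154 and 2724, and in BM they lie near 0% at every site shown.

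In BM few sites were edited in E861A, both in Bri3bp and over all genes. WT libraries accounted for 15 of the 16 edited sites and E861A libraries for 1, so that 0 of the 15 were shared, against 7.68% of the WT-edited sites of all genes in BM. Limma called 3 of the 16 sites lower in E861A and 0 higher, against 27% and 0% of the 538 edited BM sites of all genes, and 4 of the 16 had p under 0.05 without adjustment. Sites entered this test where edited in either genotype, here almost all through WT, so the direction of the calls was largely set by that selection. The same selection applied in spleen, thymus, liver, kidney and small intestine.

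Site 1852 showed the difference in all 3 replicates. It was at 55.5%, 67.0% and 39.0% in WT BM and at 0.0676%, 0.192% and 0.197% in E861A BM, from 1411 to 3645 reads per library. All 3 controls were high and all 3 mutants near 0%, so the groups were far apart. The means were 53.8% ± 14.1 and 0.152% ± 0.0732 (SD, n = 3 each), the limma estimate was -6.68 ± 0.50 on the log2 scale and the adjusted p was 0.000523. Of the 3 BM sites read in all 6 libraries this was the only 1 without overlap, where 43.9% of such sites of all genes had every E861A library below every WT library.

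The other called sites lie in stretch 3, which was not read in WT replicate 2. Site 2174 was at 57.6% and 20.4% in the WT replicates that were read and at 0%, 0% and 0.150% in E861A (estimate -5.85 ± 0.78, adjusted p = 0.00368). Site 2010 was at 8.27% and 17.7% in WT and at 0%, 0.129% and 0% in E861A (estimate -3.86 ± 0.59, adjusted p = 0.00567). Both fits rest on 2 controls against 3 mutants, and without either control the sites were no longer covered, which left 1852 as the only called site. On untransformed levels both calls were also lost (adjusted p = 0.128 for 2174 and 0.131 for 2010). Site 2174 was not called in a quasi-binomial model either (adjusted p = 0.0800), nor with no edited limit (adjusted p = 0.0572).

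Several BM sites were high in 1 of the 2 controls and near 0% in the other. Sites 2723 and 2724 were at 99.7% and 100% in WT replicate 1, from 677 reads at 2724, and at 0.186% and 0.196% in WT replicate 3. The controls also differed at 2006 (27.6% and 2.04%), at 2013 (19.0% and 0.573%) and at 2154 (25.7% and 0.562%). In the other direction, WT replicate 3 was the higher at 2008 (0% and 13.3%), 2021 (0% and 8.31%) and 2153 (0% and 9.00%).

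No such site passed the test, and the adjusted p from limma for these 8 sites ran from 0.0930 to 0.357. Site 2006 passed with an offset of 0.001 (adjusted p = 0.0240), and in a fit over all 48 libraries sites 2006, 2013 and 2723 did (adjusted p = 0.00700, 0.00689 and 0.0409). The mutant BM libraries had at most 1.64% at any of the 16 sites, reached at site 2814 in E861A replicate 1, the only Bri3bp site edited in E861A BM. Averaged over the 3 sites read in all 6 BM libraries, the level was 20.0%, 22.3% and 14.1% in WT and 0.189%, 0.388% and 0.241% in E861A.

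In liver 15 Bri3bp sites were edited in WT and 1 of them also in E861A, against 30.9% of all WT-edited liver sites. Limma called 2 of the 15 lower in E861A, with a background of 9.75%, and 5 of the 11 sites read in all 6 libraries had every mutant below every control, with a background of 33.1%. Site 1852 was at 27.4%, 65.9% and 21.2% in WT and at 0.164%, 2.17% and 0.0740% in E861A (estimate -5.22 ± 0.99, adjusted p = 0.0264). Site 2723 was at 71.0% and 19.1% in the WT replicates that were read and at 0% in all 3 E861A replicates (estimate -6.27 ± 1.15, adjusted p = 0.0319).

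The 0 edited reads at site 2723 came from 2911 E861A liver reads, which allow a level of up to 0.103%. Both liver calls depended on single libraries. Leaving out E861A replicate 1 or replicate 3 gave an adjusted p of 0.0711 or 0.0834 for site 1852, and leaving out any of the 3 mutants gave 0.0654 to 0.0858 for site 2723. A quasi-binomial model called neither (adjusted p = 0.161 for 1852 and 0.225 for 2723). With a replicate block neither passed in limma (adjusted p = 0.0516 for 1852 and 0.0991 for 2723). The site edited in both genotypes was 2174, at 1.02%, 33.0% and 7.14% in WT and at 0%, 0.703% and 5.98% in E861A, which overlapped.

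In kidney 4 sites were edited, all of them in WT and 1 also in E861A, against 27.1% of all WT-edited kidney sites. Limma called 1 of the 4 lower in E861A, with a background of 17.1%, and at 2 of the 4 every mutant was below every control, with a background of 43.5%. Site 1852 was at 8.98%, 12.6% and 3.77% in WT and at 0.0314%, 0.156% and 0.0330% in E861A (estimate -3.14 ± 0.59, adjusted p = 0.0109). This call was kept in every fit that left out 1 library but lost in a quasi-binomial model (adjusted p = 0.0733) and on untransformed levels (adjusted p = 0.1597). Site 2723 was at 11.9%, 18.4% and 0.193% in WT and at 0%, 0% and 0.110% in E861A, which did not pass (adjusted p = 0.127).

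Kidney also held the highest E861A level found outside brain. Site 2724 was at 0.0772%, 0.0941% and 11.8% in E861A and at 7.19%, 23.1% and 0.396% in WT. The single high mutant library, replicate 3, lay within the range of the controls. Stretch 3 could not be compared in kidney, since its sites were not read in enough libraries.

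Spleen had 4 edited Bri3bp sites, all in WT and 0 in both genotypes, against 9.36% of all WT-edited spleen sites. Limma called 1 of the 4 lower in E861A, with a background of 8.45%, and at 1 of the 3 sites read in all 6 libraries the genotypes did not overlap, with a background of 25.8%. Both were site 2174, at 0.996%, 10.5% and 11.0% in WT and at 0.217%, 0% and 0% in E861A (estimate -2.72 ± 0.81, adjusted p = 0.0423). This call was lost without WT replicate 2 or 3 or without any 1 of the mutants, with an adjusted p of 0.0729 to 0.242, and in a quasi-binomial model (adjusted p = 0.179). Site 1852, high in brain and BM, was at 1.97%, 0.843% and 0.146% in WT spleen.

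Thymus had 10 edited sites in WT and 0 in E861A, so that 0 of 10 were edited in both, against 5.43% of all WT-edited thymus sites. Limma called 0 of the 10, as it did 0% of all thymus sites, while 3 had p under 0.05 without adjustment. A quasi-binomial model called 0, and the study's criterion called 1. At 2 of the 10 sites every mutant was below every control, with a background of 29.3%.

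The thymus controls differed widely among themselves. Site 1852 was at 2.90%, 42.8% and 1.67% in WT and at 0.0963%, 0.187% and 0.170% in E861A (adjusted p = 0.332). Site 2174 was at 26.8%, 28.5% and 1.62% in WT and at 0%, 0% and 0.115% in E861A (adjusted p = 0.288). Without WT replicate 3, the least edited control, the adjusted p of site 2174 was 0.00246.

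In the small intestine 10 sites were edited in WT, and 2 of them (2008 and 2137) also in E861A, against 5.41% of all WT-edited sites of that tissue. Almost all of the WT signal came from replicate 1. Site 1852 was at 28.7% there and at 0.195% and 0.0306% in the other controls, and site 2724 was at 97.7% there, from 129 reads, and at 0.361% in the other control that was read. At sites 2712 and 2723 replicate 1 was at 97.7% and 98.4%. Limma called 0 of the 10 sites in either direction, as it did 0% of all sites of the tissue. None had p under 0.05, neither the quasi-binomial model nor the study's criterion called any, and the 1 site read in all 6 libraries overlapped (background 7.66%).

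Heart had the fewest edited sites, 3 in all, of which 2 were edited in WT and 1 in both genotypes, against 14.6% of all WT-edited heart sites. Site 1852 was at 6.28%, 0.0569% and 0.0768% in WT and at most at 0.359% in E861A. Site 2174 was at 1.07%, 0.872% and 1.44% in WT and at 1.80% and 1.58% in the mutants that were read, and site 2135 reached 6.11% in E861A replicate 2. Limma called 0 of the 3, as it did 0% of all heart sites, 0 had p under 0.05, and the other 2 criteria also called 0. The 1 site read in all 6 heart libraries overlapped, with a background of 8%.

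Over the 7 tissues other than brain there were 62 combinations of an edited site and a tissue. In 7 combinations the pooled E861A level passed 1%, namely site 2814 in BM, 2174 in liver, 2724 in kidney, 2008 and 2137 in the small intestine, and 2135 and 2174 in heart, with the highest group mean at 4.00% in kidney.

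Each library holds RNA of a whole tissue, so a change in the number of cells that make edited Bri3bp and a change in the amount per cell cannot be told apart.

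**Figure D3:**
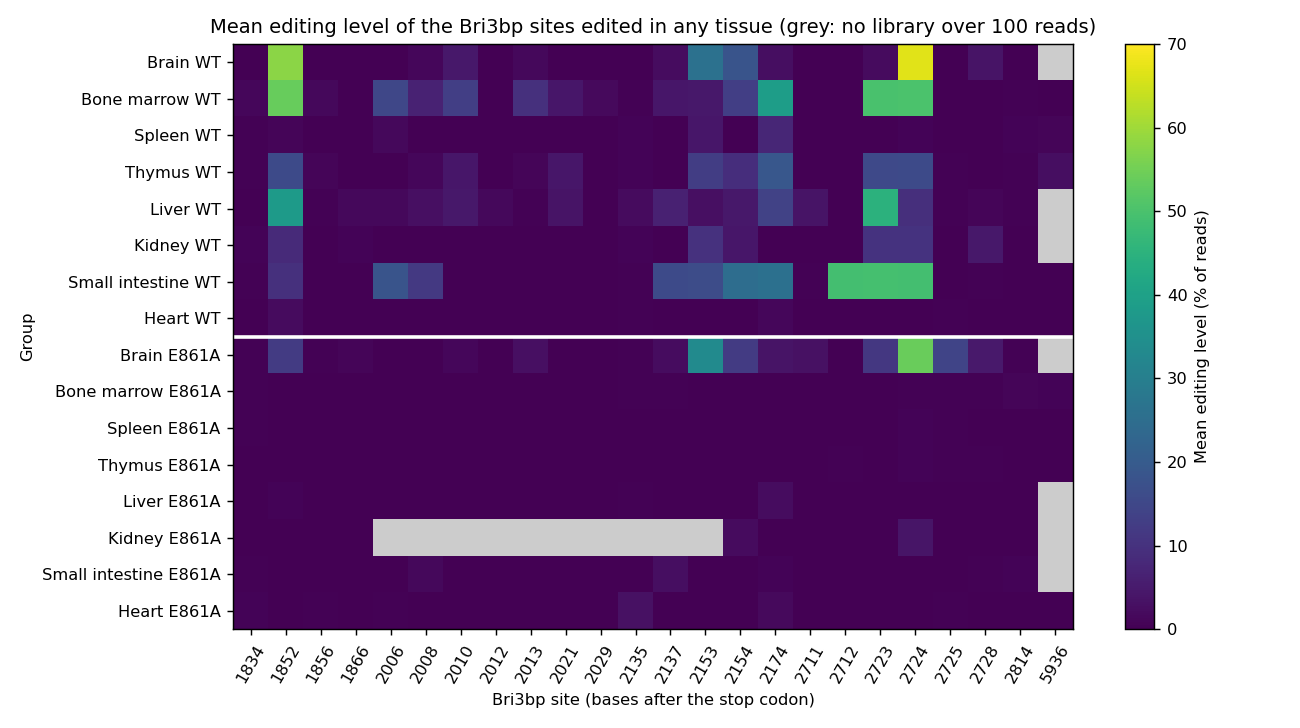
Mean editing level (colour, % of reads) of the 24 Bri3bp sites edited in any tissue (x axis, bases after the stop codon) in the 16 groups (y axis, WT above and E861A below the white line), with grey where no library had more than 100 reads. The E861A groups are dark except for the brain, where 2724 and 2153 have the highest means, 53.9% and 33.4%.

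Among the WT tissues the order of site 2724, taken as a description, was brain (66.9%), BM (50.1%), small intestine (49.0%), thymus (15.8%), kidney (10.2%), liver (9.56%), spleen (0.561%) and heart (0.249%). Every pair of neighbours in this order overlapped between replicates. The BM and small intestine means each come from 2 libraries that were far apart (SD 70.6 and 68.8), with pooled levels of 39.9% and 7.37%. Site 1852 ran from brain (58.0%) and BM (53.8%) through liver (38.2%), thymus (15.8%), small intestine (9.63%) and kidney (8.45%) to heart (2.14%) and spleen (0.985%), again with overlap between all neighbours.

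Brain was then compared with each other tissue within a genotype, in comparisons that all share the same brain libraries. Among WT animals limma called 7 of 83 site and tissue combinations, each higher in brain. They were 3 of 11 sites against spleen (background 18.9%), 1 of 4 against kidney (11.3%) and 3 of 10 against heart (5.03%). Against BM (7.01%), thymus (12.4%), liver (1.11%) and small intestine (6.83%) limma called 0 sites, with 3, 3, 3 and 1 sites at p under 0.05 without adjustment.

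Site 1852 was called against all 3 of these tissues (adjusted p = 0.00461 against spleen, 0.0268 against kidney and 0.0451 against heart). Sites 2154 (adjusted p = 0.00544) and 2724 (adjusted p = 0.0249) were also higher than in spleen, and 2153 and 2154 higher than in heart (adjusted p = 0.0451 each). Sites entered this test where edited in either tissue. The sites called against spleen, and 2153 and 2154 against heart, entered only through brain, so the direction of those calls was largely set by that selection. Only the calls of 1852 and 2154 against spleen were kept whichever library was left out, and the other 5 were lost in at least 1 case, with an adjusted p of up to 0.179. With an offset of 0.05 limma made 4 WT calls, on untransformed levels 1 and with a replicate block 0.

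Among E861A animals limma called 40 of 88 combinations, again each higher in brain. Sites entered this test where edited in either tissue, which 13 were in the E861A brain and 0 to 2 in each other tissue, so the direction of the calls was largely set by that selection. They came from 6 sites, 1852, 2153, 2154, 2723, 2724 and 2725. All 6 were higher in brain than in BM (background 31.5%), spleen (34.3%), thymus (33.4%), liver (20.2%), small intestine (33.6%) and heart (27.5%), and 4 of them than in kidney (26.2%), where 2153 and 2154 were not read in enough libraries. The adjusted p of the 40 calls ran from 9.02e-05 to 0.0215. The mean in the other tissue was at most 0.804% for 5 of the sites and reached 4.00%, in kidney, for 2724.

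Leaving out single libraries kept 24 of these 40 calls in every case. In 4 the adjusted p rose to between 0.0506 and 0.0625 in at least 1 case, and 12 could not be tested in some cases because too few libraries were left. The calls in which it rose were 2154 against heart, 2724 against kidney, and 1852 and 2154 against liver. On untransformed levels limma made 18 calls.

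**Figure D4:**
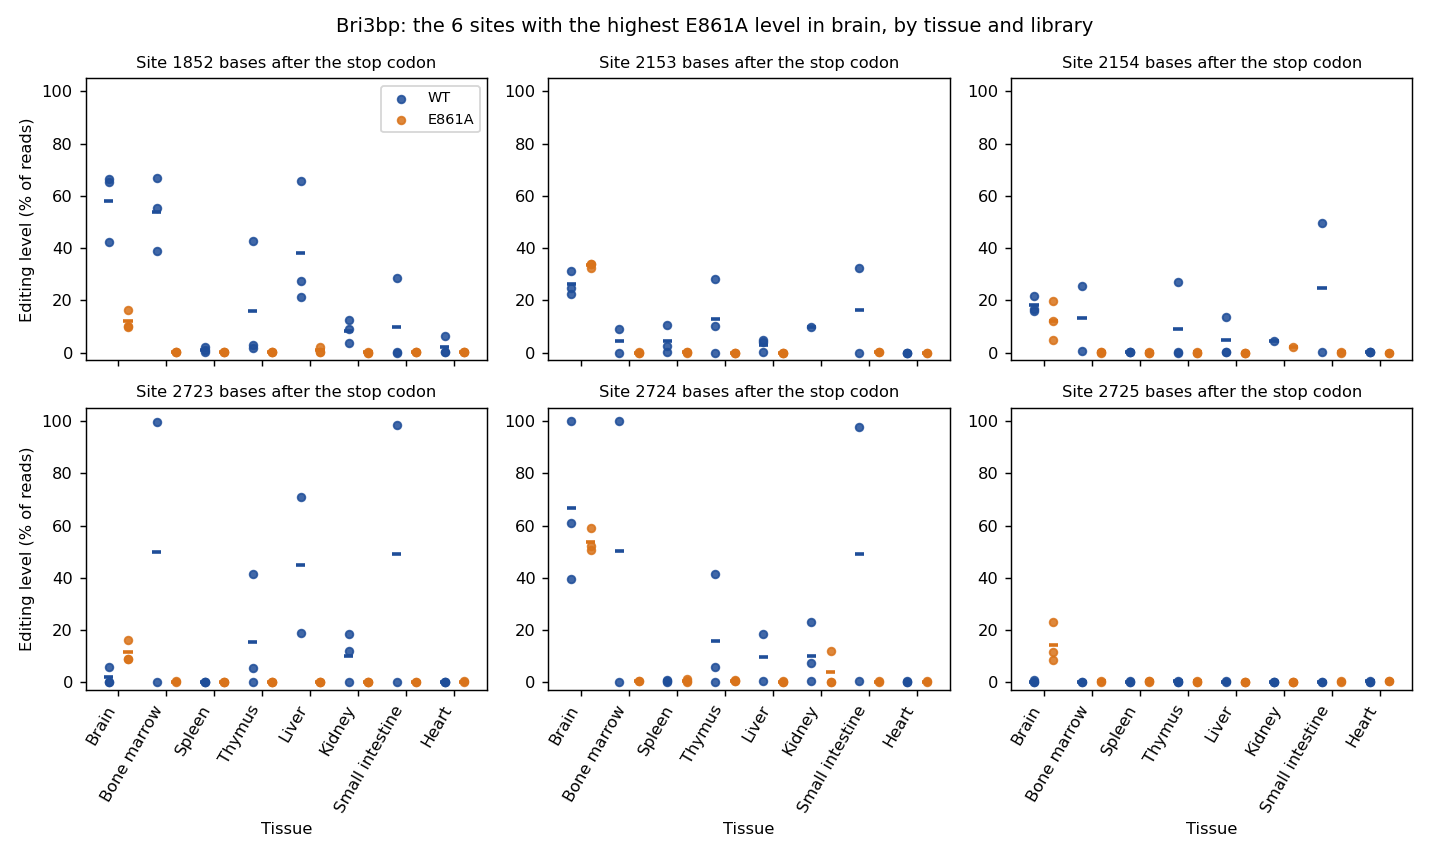
Editing level (% of reads, y axis) in each library of the 8 tissues (x axis) for the 6 Bri3bp sites with the highest mean in the E861A brain, with 1 point per library with more than 100 reads and a bar at the group mean. Outside brain the E861A points (orange) lie near 0% apart from 1 kidney library at 11.8% for site 2724, while the WT points (blue) scatter widely, up to 100% in brain and in BM for site 2724.

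Whether the genotype effect itself differed between brain and another tissue was tested as an interaction, in which limma called 4 of 104 combinations. They were 2174 against BM (background 2.99%), 2725 against spleen (1.77%), 2723 against liver (1.41%) and 2725 against kidney (1.76%). Against thymus (0.454%), small intestine (0.492%) and heart (0.231%) it called 0, with 4, 1 and 2 sites at p under 0.05 without adjustment. These comparisons too share the brain libraries.

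Site 2174 had means of 2.67% and 3.74% in WT and E861A brain and of 39.0% and 0.0501% in WT and E861A BM. The effect of E861A was therefore lower in BM by an estimate of -6.19 ± 1.25 on the log2 scale (adjusted p = 0.0324). Site 2723 had means of 1.93% and 11.4% in brain and of 45.0% and 0% in liver, with an estimate of -9.05 ± 1.49 (adjusted p = 0.0266). The difference between the brain means of site 2174 did not pass the test (adjusted p = 0.902), and their order turned without WT replicate 1 (-0.0222 percentage points).

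For site 2725 the 2 calls rest on the brain alone. It passed the edited limit only in the E861A brain, through which it entered the test, so the sign of its estimates was largely set by that selection. Its mean was 0.261% in WT and 14.4% in E861A brain, while the means were 0.133% and 0.302% in WT and E861A spleen and 0.0391% and 0.154% in kidney (estimates -3.55 ± 0.73, adjusted p = 0.0302, and -3.60 ± 0.70, adjusted p = 0.0322). None of the 4 interactions was kept in all 12 fits that left out 1 library. Limma called 1 interaction with an offset of 0.05, 0 on untransformed levels and 0 with a replicate block. The highest adjusted p was 0.0986 for 2174, 0.0800 for 2723, and 0.125 and 0.109 for 2725.

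Other genes with edited 3′ UTR clusters are given by their counts only, and the difference from Bri3bp was not tested. Ncl, which encodes nucleolin, had 9 sites edited in the WT brain, 7 of them also in the E861A brain, and 8 sites edited in WT BM, 0 of them in E861A BM, where 3 other sites were edited. Trim12c, a member of the tripartite motif family, had 0 edited sites in brain and 4 in WT BM, 0 of which were edited in E861A BM.

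Among 2556 sites of other genes read in the 16 groups, the group means most like those of site 2724 were at Atxn3 (chr12:103158082, Pearson's r = 0.92), Ncl (chr1:88246680, r = 0.90) and Zyg11b (chr4:107903225, r = 0.88), all in 3′ UTRs. Site 1852 was compared likewise after its values had been seen. The sites most like it were in Cep68 (chr11:20128609, r = 0.95), Nup155 (chr15:8108190, r = 0.94) and an intron of Zkscan3 (chr13:21481802, r = 0.94). The points of each correlation are group means that come from the same libraries for both sites.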

How the data were processed

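Per the submitters' processing notes, the authors aligned the mmPCR-seq reads to mm9 with STAR and used SAMtools. The deposited per-sample tables give, for each known position, the count of reads covering it, the count of edited reads and the level as a fraction. No molecular identifiers were used, so PCR duplicates stay in the counts. The 2 deposited tables of the whole series were not used. The Bri3bp members, the gene lists and the tests were chosen with earlier results of these data known.

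Levels were recomputed as edited reads over coverage where coverage exceeded 100 reads. Coverage of a site required at least 2 such replicates per genotype, and it counted as edited where a genotype's pooled level exceeded 0.01. Genotypes, brain against each tissue, and their interaction were tested with limma 3.58.1 (R 4.3.3, lmFit and eBayes with a trend) on log2((level + 0.01)/(1 - level + 0.01)). P-values were adjusted by Benjamini-Hochberg over every edited site of all genes, at a threshold of 0.05. The fits were tested on simulated data. Libraries of a tissue below 100 reads at a site were dropped from its fit. Sites were given with values when edited in brain or BM, highest in a WT tissue, or called, and others were named after their values were seen. Sequence and annotation came from NCBIM37 and GENCODE, and folding used RNAfold 2.7.2. Tables and plots used Python 3.11.15, pandas 2.3.3, NumPy 2.4.6 and Matplotlib 3.10.9. Alternatives were the coverage minimum, edited limit, offset, scale, trend, model, replicate block and each replicate left out.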

Additional observations from a re-analysis of the deposited data

Results flagged for a closer look

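The limma interaction test called 4 combinations of a Bri3bp site and a tissue in which the effect of E861A differed from that in brain. None of the 4 was kept in every fit that left out 1 library. The test called 1 interaction with an offset of 0.05, 0 on untransformed levels and 0 with a replicate block. The difference, other tissue minus brain on the log2 scale, was -6.19 at site 2174 in BM, -3.55 at site 2725 in spleen, -9.05 at site 2723 in liver and -3.60 at site 2725 in kidney. Site 2725 entered the test only through the E861A brain, where alone it passed the edited limit.

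Levels above 1% were also found in WT libraries at sites that were covered too rarely in their tissue to be compared. Site 2154 was at 4.27% in kidney WT replicate 3, with 1.98% in E861A replicate 2, the 1 mutant that was read. The adjoining site 2153 was at 9.94% in the same WT library, and no mutant passed 100 reads there. Site 5842 was at 1.51% in BM WT replicate 3 and at 0% in the mutant that was read. Site 5936 was at 2.55% in thymus WT replicate 3 and at 0% in both mutants that were read. These differences were not tested.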

How the results depend on the processing

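The BM call of site 1852 held under every alternative run. With an edited limit of 5%, sites edited in both genotypes numbered 4 in brain and 0 in liver, kidney, small intestine and heart. Coverage above 500 reads gave 0 such sites in small intestine, 0 sites lower in E861A in spleen and 2 in kidney. With no edited limit 0 were lower in spleen, liver and kidney. An offset of 0.05 gave 0 in spleen and liver, and one of 0.001 gave 1 in thymus and added site 2006 in BM. Untransformed levels gave 1 in BM and 0 in spleen, liver and kidney. The quasi-binomial model gave 0 in those 3 tissues, and eBayes without a trend gave 0 in spleen. The study's criterion gave 1 lower and 3 higher in brain, 1 lower in thymus and 1 in liver. A fit over all 48 libraries gave 1 lower and 1 higher in brain, and 7 lower in BM, 0 in spleen, 2 in thymus, 4 in liver and 1 in small intestine. Mean level differences were -8.98 points in brain with sites weighted by reads, and -4.24 in BM and -0.299 in spleen over all covered sites. Calls of brain against other tissues were 4 (offset 0.05) and 1 (untransformed) in WT and 18 (untransformed) in E861A. Interaction calls were 1 (offset 0.05) and 0 (untransformed).

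Whether replicate numbers shared between groups mark paired samples could not be settled. No comparison had all 3 pair correlations above 0.1, but such a limit cannot exclude pairing. Between genotypes they ran from -0.119 to 0.0102 in BM and from 0.0708 to 0.238 in spleen. With the replicate block, 0 liver sites were lower, site 2006 in BM was added (adjusted p = 0.0481), and 0 brain-against-tissue calls in WT, 33 in E861A and 0 interaction calls were made.

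Leaving out 1 replicate at a time gave 0 to 1 sites lower in E861A in brain, 1 to 3 in BM, 0 to 1 in spleen, 0 to 4 in thymus, 0 to 4 in liver, 1 to 3 in kidney and 0 in small intestine and heart, and 0 higher in every tissue. Sites edited in both genotypes numbered 7 to 10 in brain, 1 to 2 in liver, 0 to 1 in kidney and heart, and 0 to 2 in small intestine. Calls numbered 2 to 9 for WT brain and 26 to 50 for E861A brain against other tissues, and 0 to 11 for the interaction. The heart mean difference ran from -2.93 to 0.183 points (reversed without WT replicate 1), and in the other tissues it stayed below 0. The group difference in points turned sign in brain at site 2174 (without WT 1, range -0.0222 to 2.63), 2724 (without WT 1, -26.7 to 3.55), 2728 (without WT 1, WT 2 or E861A 1, -0.657 to 4.79), 2010 (without WT 2, -5.58 to 1.20) and 2137 (without WT 2, WT 3 or E861A 1, -1.45 to 0.863), and in kidney at site 2724 (without WT 2, -11.1 to 0.207). The cause of these changes was not tested. Depth left stretch 5 comparable only in spleen, and stretch 3 in every tissue but kidney.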
